A study of Mus musculus with 8 samples.

Results

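Open chromatin was followed around 9 genes of the erythroid and megakaryocyte lineages in leukemic granulocyte-macrophage progenitors (L-GMPs) of mice. The genes were Gata1, Klf1, Zfpm1, Nfe2, Epor, Tfrc, Itga2b, Pf4 and Mpig6b. A peak belonged to a gene when its summit lay inside the gene's span on the mm10 assembly or within 50 kb of either end. After peaks of all 8 libraries that shared at least 1 bp had been merged, 171 of 138385 regions met this rule. The rule used names and positions only, so the strength of a peak played no part in it.

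The libraries were made by ATAC-seq, in which a transposase inserts sequencing adapters into accessible DNA. All came from bone marrow of mice with acute myeloid leukemia driven by the MLL-AF9 fusion, and the cells were sorted as negative for lineage markers and Sca-1 and positive for c-Kit, CD34 and CD16/32. The study asked what DEK, a chromatin-bound nuclear protein, and its phosphorylated serines do in these cells. Controls were FL 1 and FL 2 (Dek fl/fl) and FL 3 (Dek+/+). Knockouts were KO 1 and KO 2 (Dek fl/fl with Mx1-Cre, a Cre that interferon switches on) and KO 3 (Dek fl/fl with Tie2-Cre, a Cre active in endothelial and blood cells). The libraries 4S-A 1 and 4S-A 2 carried Dek-Ser306A/Ser308A/Ser311A/Ser312A, an allele in which 4 serines of DEK are replaced by alanine. FL 1, FL 2, KO 1 and KO 2 are called the Mx1-Cre set, and FL 3, KO 3 and both 4S-A libraries the Tie2-Cre set, after the Cre that each set's knockout carried. FL 3 thus served as the only control of its set, for the knockout and the mutant alike, and the control genotype and the set cannot be told apart. Age is not in the labels used here, nor is the animal behind each replicate, so p-values measure only the spread between these libraries.

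Red cells and platelets descend from a shared megakaryocyte-erythroid progenitor, whereas a granulocyte-macrophage progenitor normally gives rise to granulocytes and monocytes. GATA1, with its cofactor FOG1 (the product of Zfpm1), drives both of the former fates, KLF1 takes the erythroid branch, and NF-E2, whose hematopoietic subunit is the product of Nfe2, is required for platelet formation. Their targets include receptors for erythropoietin (Epor) and transferrin (Tfrc), and the megakaryocyte proteins integrin alpha IIb (Itga2b, also known as CD41), platelet factor 4 (Pf4) and the inhibitory receptor G6b-B (Mpig6b).

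Strength is given throughout as a percentile: the rank of a peak's −log10 q among all peaks of its own library, with 100 for the strongest peak. Lists held from 51510 peaks (FL 1) to 104605 peaks (4S-A 1) on the 19 autosomes and X. All 4 lists of the Tie2-Cre set were longer than all 4 of the Mx1-Cre set, and read depth is unknown. In a longer list the same peak can take a higher percentile, because weaker peaks join below it. Values in lists shortened to their strongest 51510 peaks are therefore given beside many of the regions the comparisons name. For regions without such values, no statement is made at equal list length. Dek itself had a promoter peak in all 8 libraries, at percentiles of 65.7 to 89.2, and since its deleted part was not stated this checks no label.

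The 250 bases before the annotated start site show how different these promoters are. RefSeq's table for GRCm38.p6, the assembly also called mm10, held an entry for 8 of the 9 genes, and Nfe2 had none. The 6 printed promoters are a pair with a peak over the promoter in every library (Zfpm1 and Tfrc, the first of its 2 entries), a pair whose promoter peak varied most in strength (Itga2b and Pf4), and a pair of central regulators with no promoter peak in any library (Klf1 and Gata1). Each is written 5′ to 3′ toward the gene. Capitals mark matches on either strand to 2 motifs. The first is the GATA motif (AGATAA, in which the first letter may also be T and the last G). The second is the CACCC motif bound by KLF factors (CCNCNCCC), and overlapping matches run together.
Zfpm1, chr8:122281891-122282140, plus strand: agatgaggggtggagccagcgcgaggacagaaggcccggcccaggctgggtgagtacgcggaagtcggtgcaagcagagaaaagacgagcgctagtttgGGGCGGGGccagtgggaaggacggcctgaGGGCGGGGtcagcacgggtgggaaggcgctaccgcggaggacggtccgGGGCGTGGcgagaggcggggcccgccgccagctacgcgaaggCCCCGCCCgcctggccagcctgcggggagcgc
Tfrc, chr16:32608646-32608895, plus strand: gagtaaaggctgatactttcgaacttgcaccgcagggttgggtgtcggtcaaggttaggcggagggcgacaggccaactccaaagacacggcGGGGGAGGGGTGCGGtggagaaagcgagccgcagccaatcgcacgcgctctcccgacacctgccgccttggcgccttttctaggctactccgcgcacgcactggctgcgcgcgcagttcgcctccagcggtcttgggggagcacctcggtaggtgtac
Itga2b, chr11:102469884-102470133, minus strand: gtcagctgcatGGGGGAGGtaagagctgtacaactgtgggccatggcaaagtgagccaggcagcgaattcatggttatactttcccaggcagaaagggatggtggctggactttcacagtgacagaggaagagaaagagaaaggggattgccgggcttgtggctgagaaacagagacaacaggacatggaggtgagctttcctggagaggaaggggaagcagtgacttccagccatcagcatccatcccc
Pf4, chr5:90772185-90772434, plus strand: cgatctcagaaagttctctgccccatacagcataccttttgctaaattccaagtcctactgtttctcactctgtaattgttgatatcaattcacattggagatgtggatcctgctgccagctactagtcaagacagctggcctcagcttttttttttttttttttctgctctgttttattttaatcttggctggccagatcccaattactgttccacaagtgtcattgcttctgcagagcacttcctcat
Klf1, chr8:84901732-84901981, plus strand: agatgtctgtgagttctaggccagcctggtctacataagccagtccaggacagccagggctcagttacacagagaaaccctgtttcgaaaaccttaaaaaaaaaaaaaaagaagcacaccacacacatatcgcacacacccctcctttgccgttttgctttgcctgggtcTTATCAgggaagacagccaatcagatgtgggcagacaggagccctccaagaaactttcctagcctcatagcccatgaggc
Gata1, chrX:7967911-7968160, minus strand: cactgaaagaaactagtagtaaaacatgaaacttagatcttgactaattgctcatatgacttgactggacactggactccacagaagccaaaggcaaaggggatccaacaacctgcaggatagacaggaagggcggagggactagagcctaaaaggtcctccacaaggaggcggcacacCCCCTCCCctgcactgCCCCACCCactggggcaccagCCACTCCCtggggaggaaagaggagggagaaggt

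The GC content of these 250 bases was 73.2% for Zfpm1 and 64.8% for Tfrc, against 54% for Itga2b, 41.2% for Pf4, 49.2% for Klf1 and 54% for Gata1. The GATA motif was in 3 of the 8 promoters, 1 time each in Klf1, Epor and Mpig6b, and in 23.6% of 21045 promoters of protein-coding genes. The CACCC motif was in 5 of the 8, with 4 matches in Zfpm1 and Epor, 3 in Gata1 and Tfrc and 1 in Itga2b. It was in 53.4% of all promoters, so both motifs are common and a match describes letters, not a bound site. An ETS motif (CGGAAG, in which the first letter may also be A, not in capitals) was in 4 of the 8 against 41.2% of all, namely Gata1, Itga2b, Pf4 and Zfpm1, counting the first entry of each gene. With the second Tfrc entry it was in 5, since that entry holds 3 matches. The NF-E2 motif TGAGTCA, which AP-1 also binds, was in none of the 8 and in 4.09% of all promoters.

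The promoter window, taken as 250 bases before to 50 after the start site, separated the genes. Throughout, a library counts as having a promoter peak when it has a peak in a merged region that overlaps this window. Its own peak need not reach the window. By this rule the peak was present in all 8 libraries for Tfrc, Zfpm1 and Pf4, in 7 for Itga2b, in 5 for Epor and in none for Gata1, Klf1 and Mpig6b. Over all 17274 protein-coding genes with an entry, 52.1% had a peak there in all 8 libraries and 37.5% in none. For these 8 genes both shares were 37.5%. Inside the genes the picture differed. A region with its summit inside the span was present in all 8 libraries for 6 genes (Klf1, Epor, Tfrc, Nfe2, Itga2b and Zfpm1), in 7 for Mpig6b, in 6 for Gata1 and in none for Pf4. These 6 genes are 66.7% of the 9, beside 44.8% of all protein-coding genes, of which 32.6% had no such region in any library.

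**Figure D1:**
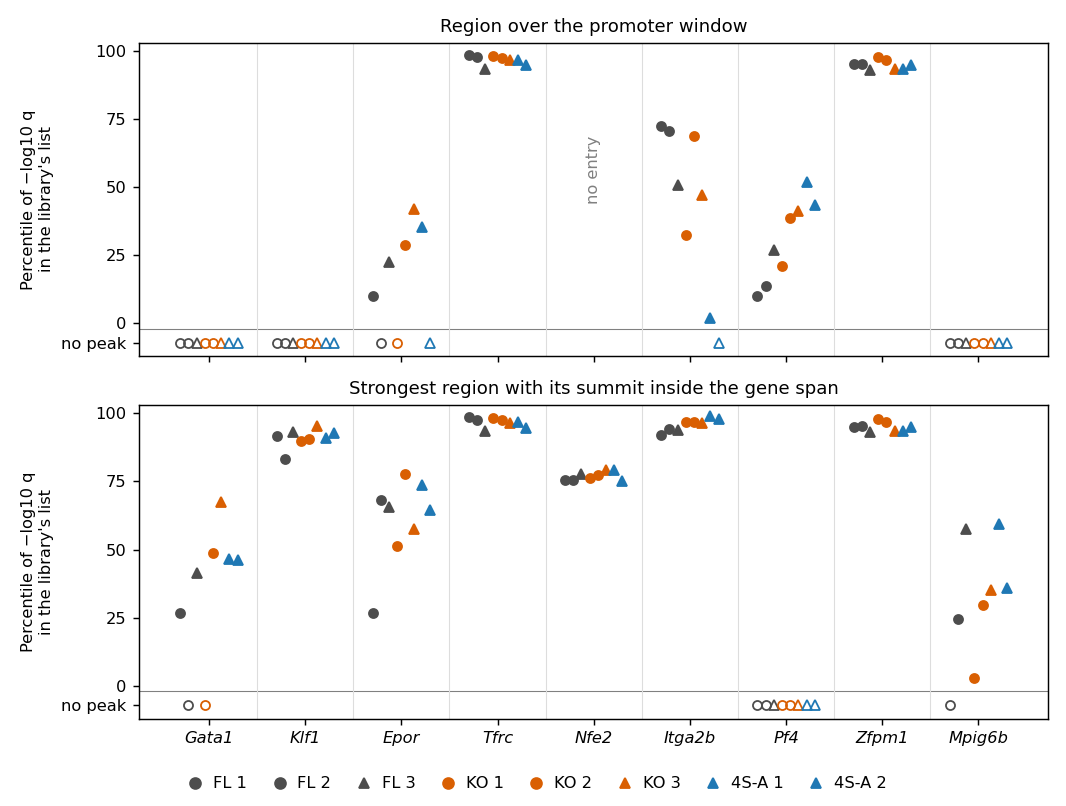
Percentile of −log10 q in each library for the region over the promoter window (top) and for the strongest region with its summit inside the gene span (bottom), per gene. Each point is 1 library (circles, Mx1-Cre set; triangles, Tie2-Cre set), open symbols mark libraries with no peak, and no entry marks Nfe2, which the promoter table lacks. For Tfrc and Zfpm1 the promoter region is also the strongest in the span, so both panels show the same region, above 90 in every library. Klf1, with no promoter peak, lies between 83.3 and 95.2 inside the gene.

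Among the regulators, Gata1 had the least open chromatin. Its only region inside the span lay +4.0 kb from the start site (chrX:7963729-7964518), counting downstream as positive. The controls FL 1 and FL 3 had percentiles of 26.7 and 41.3, the knockouts KO 2 and KO 3 had 48.8 and 67.6, and both mutant libraries had a peak, at 46.7 and 46.1, while FL 2 and KO 1 had none. Present and absent calls thus occurred in controls and knockouts alike, and in shortened lists the region was held by 4 libraries, FL 1, KO 2, KO 3 and 4S-A 2. Of the 15 regions around Gata1, 1 was held by all 8 libraries. It covered the promoter of the neighbouring gene Hdac6, a deacetylase, at percentiles of 90.9 to 99.5.

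Klf1 combined a promoter window without a called peak with a strong region in the gene. The region +1.2 kb from the start site (chr8:84902596-84903678) had percentiles of 91.8, 83.3 and 93.1 in FL 1 to 3. In KO 1 to 3 it had 89.9, 90.5 and 95.2, and in 4S-A 1 and 2 it had 91.0 and 92.9. The groups overlapped, with means of 89.4 ± 5.3 (SD, n = 3) in FL and 91.9 ± 2.9 (SD, n = 3) in KO. In the authors' deposited table its fold enrichment over local background was 8.98 to 11.73 in FL, 9.98 to 11.67 in KO and 7.84 and 8.42 in 4S-A. Those ratios were not scaled between libraries. A second Klf1 region at +2.7 kb (chr8:84904368-84904859) was absent from all 3 FL libraries and from KO 1 and KO 2. It was present in KO 3 at percentile 26.9 and in 4S-A at 50.2 and 53.7, but in shortened lists only in 4S-A 2, at 14.9.

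Zfpm1 had 9 regions in its 56.0 kb span, the most of the 9 genes. Its promoter region (chr8:122280686-122282245) had percentiles of 95.1, 95.3 and 93.1 in FL, 97.8, 96.8 and 93.4 in KO and 93.5 and 94.9 in 4S-A. All 8 libraries lay within 4.7 points of each other. Within the gene the region at +12.2 kb had 76.0, 89.9 and 82.3 in FL, 86.1, 89.6 and 73.1 in KO and 72.8 and 73.8 in 4S-A. The region at +33.0 kb had 70.5, 77.2 and 87.4 in FL, 64.9, 76.7 and 84.5 in KO and 71.4 and 77.0 in 4S-A. Groups overlapped at +33.0 kb, and at +12.2 kb FL and KO overlapped, with KO 3 between the 4S-A libraries. Shortened lists gave other values. At +33.0 kb FL had 70.5, 75.7 and 77.6, KO had 61.7, 66.5 and 72.0 and 4S-A had 42.0 and 57.8, so that 4S-A no longer overlapped the others. At +12.2 kb 4S-A had 44.7 and 51.8, beside 51.4 in KO 3, 68.5 in FL 3 and 76.0 to 89.3 in the Mx1-Cre set.

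A further Zfpm1 region lay at +42.0 kb in the gene (chr8:122323933-122324944). It had percentiles of 65.5, 62.1 and 49.5 in FL and 66.8, 45.8 and 52.0 in KO, against 14.3 and 9.6 in 4S-A. Both mutant libraries lay below all 6 others, and FL and KO overlapped. In shortened lists FL had 65.5, 59.6 and 10.1, KO had 63.7, 22.1 and 13.3, and neither 4S-A list held the region. FL 3 and KO 3, of the same set as the mutant, then also lay far below FL 1, FL 2 and KO 1. In the authors' deposited table the fold enrichment was 7.26 in FL 3, 7.36 in KO 3, 4.55 in 4S-A 1 and 3.99 in 4S-A 2.

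Nfe2 was open in several places. The region over the upper end of its span (chr15:103257892-103258799) had percentiles of 97.3, 98.4 and 94.6 in FL, 97.9, 98.5 and 97.1 in KO and 95.5 and 96.8 in 4S-A. The groups overlapped within a range of 3.9 points, and the strand of Nfe2 was not in the tables used here, so this end cannot be called a promoter. A further 3 regions inside the gene, centred at 103250382, 103252879 and 103255415 on chromosome 15, were held by all 8 libraries. They lay between percentiles 44.2 and 79.3, and the lowest value of the 3 regions was that of KO 1 in the middle one. In shortened lists they lay between 32.4 and 75.5, the lowest being 4S-A 2 in the last one.

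Of the receptors, Tfrc, which brings iron into dividing cells, had the strongest promoter region, with a mean percentile of 96.7 over the 8 libraries. Its promoter region (chr16:32608380-32609676) had percentiles of 98.6, 97.6 and 93.5 in FL, 98.2, 97.5 and 96.6 in KO and 96.8 and 94.7 in 4S-A. Groups overlapped, with means of 96.5 ± 2.7 (SD, n = 3) in FL and 97.4 ± 0.8 (SD, n = 3) in KO. A region at −13.5 kb (chr16:32594746-32595884) had 76.6, 77.3 and 92.8 in FL, 76.0, 69.9 and 93.9 in KO and 95.3 and 95.6 in 4S-A. There the values followed the sets, all 4 libraries of the Tie2-Cre set being above all 4 of the Mx1-Cre set, also in shortened lists (87.2 to 91.9 against 56.7 to 76.6).

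Epor, whose product carries the survival signal of red cell precursors, had a region +0.9 kb inside the gene (chr9:21961978-21962919) in every library. Percentiles were 26.9, 68.2 and 65.7 in FL, 51.4, 77.8 and 57.7 in KO and 73.6 and 64.6 in 4S-A. The spread within FL (SD 23.2) exceeded the difference of any 2 group means. In shortened lists the values were 26.9, 66.1 and 39.0 in FL, 47.0, 68.1 and 23.6 in KO and 46.3 and 34.9 in 4S-A, with the groups still overlapping. Its promoter region (chr9:21963325-21963723) was weak, with 10.1 in FL 1, 22.6 in FL 3, 28.8 in KO 2, 41.8 in KO 3 and 35.5 in 4S-A 1, and no peak in FL 2, KO 1 and 4S-A 2. Each group therefore held both a library with and a library without an Epor promoter peak, and in shortened lists only FL 1 kept it.

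Among the megakaryocyte genes, Itga2b was the most open. The region +2.6 kb from its start site (chr11:102466883-102467645) had percentiles of 91.9, 94.2 and 93.9 in FL, 96.7, 96.9 and 96.3 in KO and 99.1 and 98.1 in 4S-A. The 3 groups did not overlap: FL was lowest, KO next and 4S-A highest, with means of 93.3 ± 1.2 (SD, n = 3), 96.6 ± 0.3 (SD, n = 3) and 98.6 (n = 2). In the authors' deposited table the fold enrichment ran from 10.93 to 13.11 in FL, 13.21 to 13.58 in KO and 16.05 to 16.50 in 4S-A. In shortened lists the percentiles were 91.9, 93.8 and 89.2 in FL, 96.4, 95.5 and 93.4 in KO and 98.2 and 96.4 in 4S-A, so that FL and KO overlapped by a small margin (93.8 in FL 2 and 93.4 in KO 3) and KO 1 met 4S-A 2 at 96.4.

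The Itga2b promoter region (chr11:102469774-102470429), whose sequence is printed above, gave values in another order. It had percentiles of 72.4, 70.7 and 50.8 in FL and 32.3, 68.7 and 47.3 in KO, against 1.9 in 4S-A 1 and no peak in 4S-A 2. FL and KO overlapped, and both 4S-A libraries lay below all others. In shortened lists the values were 72.4, 68.8 and 12.6 in FL and 26.0, 54.9 and 4.8 in KO, with no peak in 4S-A, so FL 3 and KO 3 came close to the mutant. Within 1 gene the region at +2.6 kb thus had its highest percentiles and the promoter its lowest in the mutant.

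Pf4 had the weakest promoter region of the 3 genes with a peak there in every library. That region (chr5:90771219-90772697) had its strongest summit at −0.9 kb, outside the promoter window. Its percentiles were 9.9, 13.8 and 26.8 in FL, 21.2, 38.8 and 41.1 in KO and 52.0 and 43.4 in 4S-A. Within each set KO lay above FL, and both 4S-A libraries lay above all others. In shortened lists the region had 9.9 in FL 1, 8.1 in FL 2, 14.0 in KO 1, 12.1 in KO 2 and 2.5 in 4S-A 1, and was absent from the other 3 libraries (FL 3, KO 3 and 4S-A 2). The position of the mutant above the rest was therefore not seen at equal list length. Stronger regions flanked Pf4 at −30.2 kb, with percentiles of 89.8 to 98.4, and at +17.4 kb, with 63.4 to 93.3.

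Mpig6b had no promoter peak in any library. Inside the gene, a region at +1.1 kb (chr17:35064890-35065797) had 24.5 in FL 2, 57.5 in FL 3, 2.9, 29.8 and 35.3 in KO and 59.5 and 36.1 in 4S-A, with no peak in FL 1. The values of FL and KO overlapped. In shortened lists only FL 2, FL 3 and 4S-A 1 held it, at 19.6, 24.5 and 17.7. The gene lies in the crowded major histocompatibility region, where 8 of its 26 regions covered promoters of other genes.

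**Figure D2:**
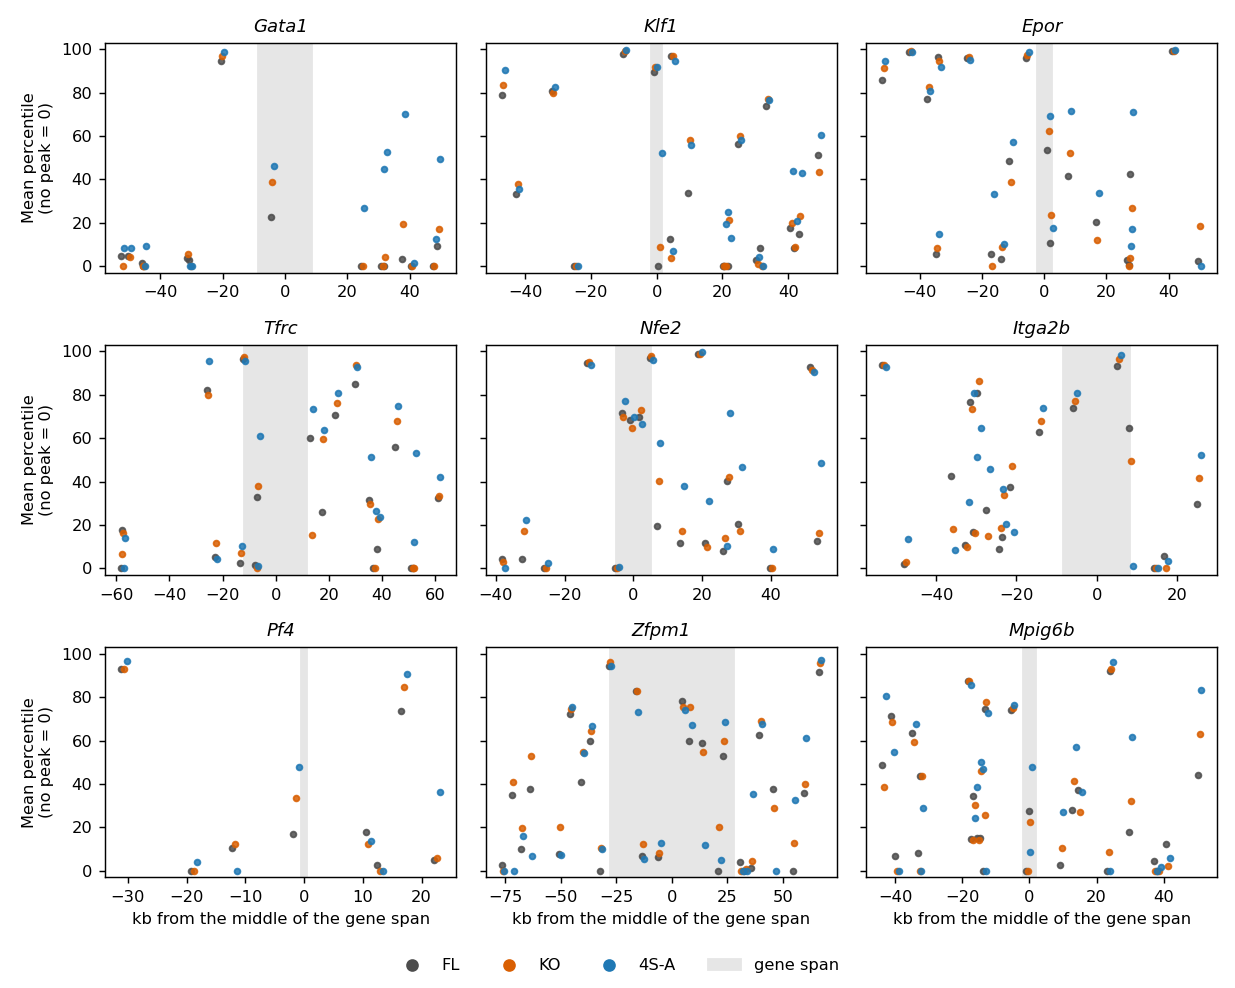
Mean percentile of −log10 q per group (a library without a peak counted as 0) for all 171 regions, against the distance in kb from the middle of each gene span. Points are FL, KO and 4S-A, moved slightly sideways, and grey marks the gene span. Strong regions held by all groups, such as that next to the Gata1 span, stay in place. Groups separate mainly at weak regions, such as those to the right of Gata1, where most 4S-A points lie highest. FL and KO means include the shorter lists of the Mx1-Cre set and 4S-A means do not, so group and set cannot be told apart in these points.

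Of the 171 regions 65 (38%) were in all 8 libraries, against 24.1% of all 138385, and 21 were in a single library. Sharing and strength varied with position. Of 29 regions over promoters of neighbouring genes, 21 (72.4%) were in all 8 libraries, with a median mean percentile of 83.5. The 22 regions inside the spans of the 9 genes, promoters not counted, had 12 in all 8 libraries and a median of 53.7, the 73 inside other genes 19 and 32.0, and the 42 between genes 10 and 39.4. The 22 regions with a mean percentile over 90 included 13 over neighbours' promoters, such as that of Dnase2a next to Klf1 (93.0 to 98.3), which encodes the nuclease that digests the expelled nuclei of red cells.

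Promoters of genes that work with the 9 were open in part. Over all protein-coding genes with an entry, the promoter held a peak in all 8 libraries for 52.1% and in none for 37.5%. Of 24 erythroid pathway genes in the table, 17 had a promoter entry. Their promoter held a peak in all 8 libraries for 6 (35.3%), in some for 1 and in none for 10 (58.8%). The 6 included Ldb1, Gfi1b and Gata2, nuclear regulators, with mean percentiles of 92.1, 63.9 and 62.8, whereas Tal1 and Bcl11a, likewise regulators, had no promoter peak and a region in the gene in every library. Of 16 megakaryocyte pathway genes with an entry, 6 had the peak in all 8 (37.5%), 2 in some and 8 in none (50%). The 6 included Runx1 (83.3), which encodes a transcription factor, Nbeal2 (93.1), needed for platelet alpha granules, and the thrombin receptor gene F2r (91.4). For Selp, the platelet adhesion molecule, the strongest region inside the gene averaged 97.2 although its promoter held a peak in 2 libraries only.

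Defining genes of mature cells, most of them also in the pathway lists, were set beside those of the sorted population. No peak lay over the promoter of any of 7 erythroid markers in any library, and Hba-a1, Hba-a2, Hbb-bs, Hbb-bt, Alas2 and Epb42 had no region inside the gene. The globin genes have near-identical copies, so their absence is uncertain. Of 7 megakaryocyte markers 1, Gp9, had a promoter peak, in 5 libraries at 13.7 to 56.1. Gp1ba, Gp1bb, Gp5, Gp6, Ppbp and Treml1 had none. Of 11 markers of the sorted population and its granulocyte program 10 had one in all 8 libraries, including Kit, Cd34, Fcgr3 and Mpo, and only Prtn3 had none. B cell markers (0 of 3) and T cell markers (0 of 5) had no promoter peak in any library. Mast cell and basophil markers had 1 of 5 in all 8 (Mcpt8), and endothelial markers had 1 of 4 in all 8 and 3 in some. Of all protein-coding genes with an entry, 52.1% had a promoter peak in all 8 libraries and 37.5% in none. Inside the gene, 3 of 10 megakaryocyte markers had a region in all 8 libraries and 2 had none in any. The 3 were Vwf (mean percentile 90.9), Itgb3 (83.7) and Gp5 (41.3). Of 6 B cell markers 3 had such a region, including Pax5 (87.4), and of 6 T cell markers 2, including Cd3d (97.2). In both lists 1 gene had none, and of all protein-coding genes 44.8% had such a region.

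**Figure D3:**
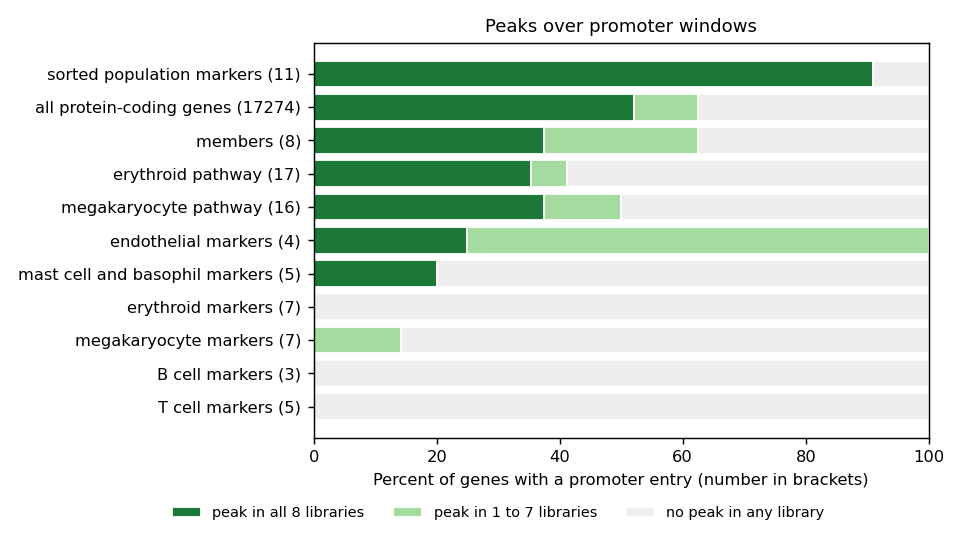
Percent of genes whose promoter window held a peak in all 8 libraries (dark green), in 1 to 7 (light green) or in none (grey), per gene list, with the number of genes that have a promoter entry in brackets. A library's peak counts when its merged region overlaps the window. Of the markers of the sorted population 90.9% were open in all 8 libraries, of the erythroid markers none, and the 9 genes and their pathway lists lie between them.

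The first comparison asked whether loss of Dek opened or closed chromatin at the 9 genes (3 KO against 3 FL libraries). Lost means held by every control library of the comparison and by none of the others, and gained means the opposite. Of 75 regions at the 9 genes that could have been lost 0 were, and of 77 that could have been gained 0 were, against backgrounds over all regions of 0.214% and 0.754%. Leaving out 1 library moved these counts, to 1 lost without FL 1 and 2 without KO 3, and to 3 gained without FL 3 or without KO 1. The backgrounds with a library left out were not computed.

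Inside the Mx1-Cre set, with 2 libraries a group, 2 of 75 regions were lost (2.67%, background 2.07%) and 3 of 78 gained (3.85%, background 13.5%). The lost ones were a region just beyond Tfrc (chr16:32634074-32634560) and one +44.1 kb from the Itga2b start site, between genes and nearest to Grn (chr11:102425428-102425955). The Tfrc region had 55.9 and 62.2 in FL 1 and FL 2 and no peak in KO 1 and KO 2, but all 4 libraries of the other set held it, FL 3 at 61.9, KO 3 at 46.8 and the mutant at 75.6 and 71.3. The Itga2b region likewise had 54.5 in KO 3, so neither loss was seen in the knockout of the other set. The gained ones lay next to Nfe2 (chr15:103260103-103260779), upstream of Tfrc (chr16:32597917-32598561) and over the Clic1 promoter near Mpig6b (chr17:35050161-35050498), and FL 3 held all 3. In shortened lists no library held the Tfrc one. The Nfe2 one then had 31.0 in KO 1, 16.2 in KO 2 and 27.3 in FL 3, and the Clic1 one had 33.2, 25.9 and 2.7. Counts without 1 of the 4 libraries ranged from 2 to 7 lost and from 6 to 16 gained, with 7 lost without FL 1 or FL 2, 6 lost without KO 2, 16 gained without KO 1, 7 gained without KO 2 and 6 gained without FL 1 or FL 2.

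In the Tie2-Cre set, where 1 library stands against 1 and there is no replicate check, KO 3 lacked 14 of 136 regions of FL 3 (10.3%, background 14.4%). It held 10 of 132 regions that FL 3 lacked (7.58%, background 15.3%). Both shares were below the background. The 14 regions were weak, with percentiles in FL 3 from 0.88, at the Gata1 region at −25.0 kb, to 30.8, at a region in Cxcl5 near Pf4. The Klf1 region at +2.7 kb was among those held by KO 3 and not FL 3, though not in shortened lists, where neither held it.

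Strength was then compared in the regions held by all 8 libraries. Percentiles were turned into normal scores and fitted with limma, with terms for the set, the knockout and the mutant, and Benjamini-Hochberg adjustment over all 33321 regions. For the knockout 0 regions passed an adjusted p of 0.05 (background 0%) at the 9 genes, at their pathway genes or elsewhere. At an unadjusted p under 0.05 there were 2940 in all, of which 5 were among the 65 at the 9 genes. The lowest adjusted p (limma) at the 9 genes was 0.529. It was shared by the Pf4 promoter region, with a difference of 0.56 (SE 0.18) normal-score units, and the Ly6g5b promoter near Mpig6b, with 0.56 (SE 0.17). The Itga2b region at +2.6 kb differed by 0.33 (SE 0.14, limma adjusted p = 0.562), and the Klf1 region at +1.2 kb by 0.14 (SE 0.15, limma adjusted p = 0.815).

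The median difference between KO and FL over the 65 regions was 0.107, beside 0.096 over all regions tested. It was positive in 47 of 65 and in 69.2% of all. On a rank among the shared regions only, which removes list length, the medians were 0.020 and −0.006, with 34 of 65 positive. A knockout effect that differed between the sets was found for 0 of 33321 regions by limma (background 0%), with 2417 of them and 5 at the 9 genes under an unadjusted p of 0.05.

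KO lay above FL without overlap in each set at 12 of the 65 regions (18.5%, background 16.3%), and below it at 0 (background 3.42%). The 12 included the Itga2b regions at +2.6 and +13.7 kb, the promoters of Pf4 and Zfpm1 and the Zfpm1 region at +36.1 kb. By rank among shared regions the counts were 7 above (10.8%, background 9.81%) and 6 below (9.23%, background 10.2%). The Itga2b region at +13.7 kb was not among the 7. The imbalance of 12 against 0 was thus down to 7 against 6 on the second scale, and on each scale the counts above were near the background.

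The second comparison addressed the serine-to-alanine mutant, against FL 3 alone (2 against 1) and against FL 3 and KO 3. Because KO 3 and the mutant share FL 3 as their control, their values are given side by side and no likeness between them is drawn. Both 4S-A libraries lacked 9 of 136 regions of FL 3 (6.62%, background 11.7%) and held 13 of 120 that FL 3 lacked (10.8%, background 16.4%). Without 4S-A 1 these counts were 26 and 20, and in shortened lists they were 11 and 2. For these settings the share over all regions was not computed, so the counts cannot be set against a background. With KO 3 added to the control the counts were 2 of 122 (1.64%, background 5.16%) and 8 of 120 (6.67%, background 10.8%). Each share printed here with a background lay below that background.

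The 2 regions missing from the mutant alone in its set lay in Zfp469 near Zfpm1 (chr8:122238151-122238607) and in Prkcsh near Epor (chr9:22010685-22011651). The first had percentiles of 51.6, 37.7 and 16.0 in FL and 25.7, 53.9 and 42.7 in KO and was held by neither 4S-A library. In shortened lists FL 3 and KO 3 did not hold it either. The second was weak, with 6.6 in FL 3, 36.8 in KO 1 and 18.6 in KO 3, and in shortened lists only KO 1 held it, at 31.0. Among the 8 held by the mutant alone in its set were 2 upstream of Gata1, at −31.4 kb (43.6 and 46.4 in 4S-A, no peak in any other library) and at −47.9 kb (13.2 and 11.8). Next to the former, a region at −32.3 kb had 58.1 and 46.7 in 4S-A (14.8 and 2.0 in shortened lists) and 13.2 in KO 3 (absent there). One at −38.1 kb, in Glod5, had 73.0 and 67.0 in 4S-A, 57.9 in KO 3 and 9.8 in FL 3, and no peak in the Mx1-Cre set. In shortened lists no library held the region at −47.9 kb, and that at −31.4 kb was left in 4S-A 2 alone at 1.4. The region at −38.1 kb was then held by KO 3 (24.0) and 4S-A (45.2 and 39.3). The Tnk2 promoter near Tfrc was likewise held only by 4S-A, at 65.2 and 41.4, and in shortened lists only by 4S-A 1, at 29.3.

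**Figure D4:**
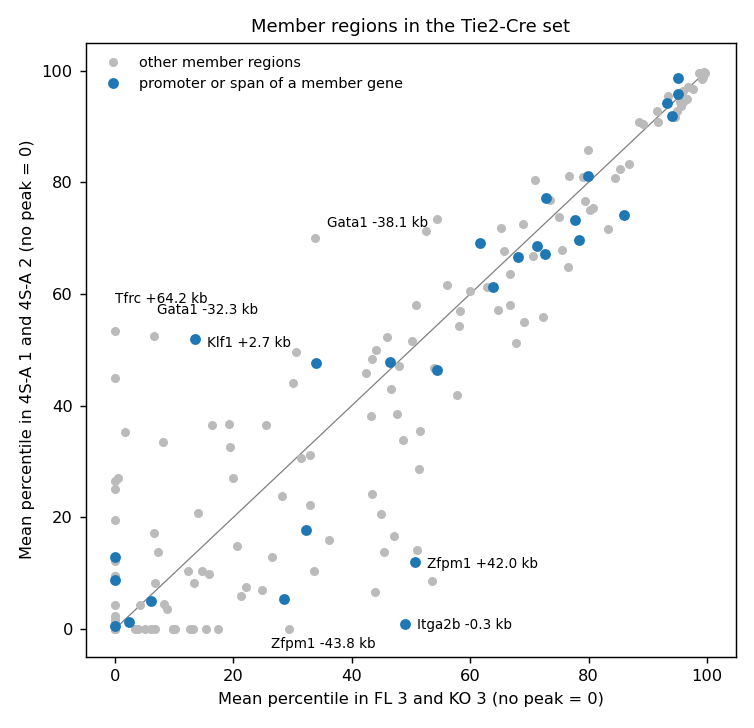
Mean percentile in 4S-A 1 and 4S-A 2 (vertical) against the mean in FL 3 and KO 3 (horizontal) for the 171 regions, a library without a peak counted as 0. Blue marks regions over the promoter or in the span of the 9 genes, grey the rest, the line marks equal values, and labels give the gene and the distance from its start site. Strong regions lie on the line, and the labelled regions of Gata1, Klf1 and Tfrc lie above it and those of Zfpm1 and Itga2b below.

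In the limma fit the mutant differed from FL at 0 regions (adjusted p of 0.05, background 0%), with 2217 in all and 5 of the 65 under an unadjusted p of 0.05. The lowest adjusted p (limma) at the 9 genes, 0.291, was that of the Zfpm1 region at +42.0 kb, with a difference of −1.26 (SE 0.23) normal-score units and both mutant libraries below the other 6. Over the 14 alternatives that could test this region its adjusted p (limma) ranged from 0.186 to 0.955. The Itga2b region at +2.6 kb differed by 0.71 (SE 0.19, limma adjusted p = 0.446) and the Pf4 promoter by 0.65 (SE 0.23, limma adjusted p = 0.642). The median over the 65 regions was 0.009, beside 0.052 over all.

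Both 4S-A libraries lay above the other 6 at 7 of the 65 regions (10.8%, background 17%) and below them at 4 (6.15%, background 4.37%). Those above included the Itga2b region at +2.6 kb, the Pf4 promoter, the Tfrc region at −13.5 kb and the Grn promoter near Itga2b. In shortened lists the Grn promoter had 57.8 and 68.5 in 4S-A, below FL 1 (76.3), FL 2 (76.4) and KO 1 (72.0). The other libraries had 57.2 (FL 3), 54.2 (KO 2) and 59.2 (KO 3) there, so 4S-A no longer lay above the rest. Those below were the Zfpm1 region at +42.0 kb, 2 regions near Itga2b in Grn (+37.5 kb) and Fam171a2 (+29.4 kb), and a region in Vwa7 near Mpig6b (+42.3 kb). The region in Grn had 84.7, 81.6 and 76.9 in FL, 91.2, 91.5 and 76.3 in KO and 62.8 and 66.8 in 4S-A. In shortened lists 4S-A had 24.5 and 38.9 there, below FL 3 (59.0), KO 3 (57.1) and the Mx1-Cre set (80.4 to 90.4). By rank among shared regions 4 were above (6.15%, background 9.51%) and 12 below (18.5%, background 10.1%). On that scale the order of the counts turned, and the 12 included the Zfpm1 regions at +33.0 and +42.0 kb.

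The sets differed from each other at these genes as they did elsewhere. All 4 libraries of the Tie2-Cre set and none of the Mx1-Cre set held 15 of 104 regions (14.4%, background 15.9%). The reverse was true of 0 of 69 (background 0.301%). The 15 included the Gata1 region at −38.1 kb, 4 near Nfe2 and 3 near Itga2b. List length differs between the sets in the same direction. In shortened lists 0 of the 15 were held by all 4 libraries of the Tie2-Cre set, 2 by 3 of them, 2 by 2, 4 by 1 and 7 by none.

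As a share of regions, the windows around the 9 genes were covered better than regions at large in every library. Of the 171 regions in these windows, 29 lay over promoters of neighbouring genes and 73 inside other genes. Windows around other genes were not measured for comparison. FL 1, FL 2 and FL 3 held 88, 84 and 136 of the 171 regions, which was 17, 12.1 and 14.8 percentage points above the library's share of all regions. KO 1, KO 2 and KO 3 held 82, 101 and 132, or 9.64, 9.16 and 11.8 points above it, and 4S-A 1 and 4S-A 2 held 142 and 130, or 9.68 and 10.1. The KO values lay below all FL values, with means of 10.2 ± 1.41 (SD, n = 3) and 14.6 ± 2.47 (SD, n = 3), and no test is given because the regions were chosen as a list. Shortened lists, merged anew, gave 125 regions at the 9 genes, of which each library held 78 to 88. The difference between KO and FL was then −1.99 points and between 4S-A and FL 3 −5.96 points, with FL 9.92 ± 2.94 (SD, n = 3) and KO 7.93 ± 2.83 (SD, n = 3) overlapping.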

How the data were processed

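The 8 libraries were taken as labelled. Per the labels' protocols about 5000 cells entered each reaction, with 13 to 16 PCR cycles. Bowtie2 2.2.9, MACS2, featureCounts, Picard and Trim Galore 0.4.4 are named, with the build mm10 and no roles, per the submitters' processing notes. The authors deposited a separate peak list for each library. The fold enrichment the authors deposited is a ratio to local background, and the −log10 p and −log10 q (lowest 1.30 to 1.41) and the integer score they deposited were not scaled between libraries. The other deposited columns hold positions.

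Peaks on the 19 autosomes and X were merged where they shared at least 1 bp (Python 3.11.15, pandas 2.3.3; merging checked against bedtools 2.31.1). Percentiles are average ranks of −log10 q, the highest peak counting where a region held several. The fit used limma 3.58.1 in R 4.3.3 on normal scores of regions in all 8 libraries and was tested on simulated data. Gene spans and promoters came from RefSeq tables (GRCm38.p6, 21631 protein-coding genes), which gave no exons, so exon or intron is not stated. Genes named are the 9 genes, those of the pathway and marker lists, and genes whose promoter or span a named region overlaps. Members and lists were chosen with earlier results of these data known. The deviations of same-numbered FL and KO libraries had correlations over regions of 0.24, 0.21 and 0.52, but different numbers inside the Mx1-Cre set had 0.18 and 0.23, and FL 1 minus FL 2 against KO 1 minus KO 2 had 0.02. The correlations thus followed the set, and the replicate number served as a block in an alternative fit only. The peak names inside the lists of KO 1 and KO 2 carry other replicate numbers than the labels.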

Additional observations from a re-analysis of the deposited data

How the results depend on the processing

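With 2 or 3 libraries a group, unknown depth and a single control in the Tie2-Cre set, these lists limit what can be called at single regions. Alternatives were shortened lists, −log10 q of at least 2, summit clusters of 150 bp, windows of 10 kb or the gene span, other scales and leaving out each library. The values by rank among shared regions for groups without overlap, and the values per region and per set in shortened lists, were chosen after seeing the data.

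For KO against FL, lost and gained stayed at 0 under shortened lists, the stricter threshold, summit clusters and both windows, and without 1 library they ranged from 0 to 2 and from 0 to 3. Inside the Mx1-Cre set 1 was lost and 1 gained within 10 kb, and 0 and 0 in the gene span. Without 1 library the ranges were 2 to 7 and 6 to 16. For 4S-A against FL 3, 2 were gained in shortened lists. Within 10 kb 1 was lost and 3 gained, in the gene span 0 and 2, and with KO 3 added to the control 2 and 8. Without 1 of the mutant libraries 12 to 26 were lost and 18 to 20 gained. The coverage difference between 4S-A and FL 3 was −2.06 points with summit clusters and 2.77 points in the gene span, and that between KO and FL was −0.67 points in the gene span. The cause of these moves was not tested beyond the smaller number of regions (26 in the gene span, 51 within 10 kb). For shortened lists, the stricter threshold, summit clusters and a library left out, the share of all regions lost or gained was not computed. Those counts therefore have no background.

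By limma, 0 regions at the 9 genes passed for KO against FL in each of the 16 alternatives, and from 0 to 0 with a library left out. For 4S-A, 1 of 116 passed where regions held by at least 4 libraries were tested (0.862%, beside 0.818% of all 75684). That region, in Zfp469 near Zfpm1, has no peak in 4S-A, its mutant values were set to the lowest rank, and it entered the test only through the other 6 libraries. The count was 0 in the other 14 alternatives, and 0 to 0 with a library left out. With the replicate block in place of the set term, 0 passed and the median KO difference stayed at 0.107. No paired analysis was possible for 4S-A because its numbers match FL libraries of the other set.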
